A study of Mus musculus with 6 samples.

Results

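A domain boundary on mouse chromosome 11 was followed through 6 genotypes by the contacts of the 7 bins of 10 kb that hold it, 111360001 to 111430000 in mm9. The zone was chosen on measured values: it was selected as the boundary of the WT contact map and the bins around it, so its shape in WT is given as a description and supports nothing else. Its members were all pairs with 1 bin in the zone and the other outside it, 4060 of the 172578 bin pairs of a map of 587 bins (109010001 to 114880000). All libraries came from limb buds at E12.5 and were made by capture Hi-C, which enriches ligated DNA fragments of a chosen region with probes and counts each ligated pair as a contact between a pair of bins. WT mice were the control, deltaBor mice have lost the boundary, Dup-S mice carry a duplication within the domain on the Sox9 side, Dup-L and Dup-C mice carry duplications that span the boundary, and Dup-LdeltaBor mice carry the Dup-L duplication without the boundary. Each genotype was 1 library, with no replicate, which leaves no test between genotypes and no p-value. The number of animals pooled, the zygosity of the alleles and whether a line descends from 1 clone were not given in the sources used here. A map of cells in bulk gives contacts of both alleles and of all cell types of the limb bud together.

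Chromosomes of mammals are folded into domains within which contacts are frequent, and a boundary between domains is usually bound by the protein CTCF, where cohesin that extrudes DNA loops is held. Such a place shows as a stripe of raised contact running from the boundary into 1 domain, with peaks where the stripe meets other places of the same kind. Between Kcnj2, a gene of an inward-rectifying potassium channel, and Sox9, a transcription factor gene of cartilage and gonad development, the boundary keeps the regulatory DNA of Sox9 apart from Kcnj2. The RefSeq gene table, on another build (GRCm38), lists 7 genes between this pair, of which 1 is protein coding (Gm11677). No genome of the maps' build was used here, so neither gene starts nor CTCF motifs were placed in the bins, and no bases of the zone are printed.

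The zone bins are called here by the distance of their start from the start of the bin lost in deltaBor, 111390001 to 111400000. The centromeric-side bins are thus the -30 kb bin (111360001 to 111370000), the -20 kb bin (111370001 to 111380000) and the -10 kb bin (111380001 to 111390000). On the telomeric side, toward higher coordinates, lie the +10 kb bin (111400001 to 111410000), the +20 kb bin (111410001 to 111420000) and the +30 kb bin (111420001 to 111430000). The 2 bins a side that do not touch the lost bin are called the outer bins. Partners were counted from 70 to 1000 kb away (94 bins a side), so that all of them lay outside the zone. Contacts of a bin with partners on its own side of the lost bin are own-side contacts, and those with partners beyond the lost bin are cross-side contacts.

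The members held 147928 contacts in WT (2.10% of the map), 126611 in Dup-C (3.06%), 256406 in Dup-L (3.11%), 109055 in Dup-S (2.07%), 76968 in deltaBor (1.21%) and 214297 in Dup-LdeltaBor (2.39%). Between 3282 (deltaBor) and 3998 (Dup-L) of the 4060 pairs held at least 1 contact. The maps held 4144258 (Dup-C) to 8965219 (Dup-LdeltaBor) contacts in all. Intervals are at the 95% level from the counts and cover counting error only. Whether amplified duplicates were removed was not given in the sources used here, and any left would make these intervals too narrow.

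The first question was which zone bins each genome still held. In deltaBor the lost bin had 0 contacts, against 23530 outside the zone in WT, which allows up to 0.0157% of the WT level at a floor of 3 counts. Relative to the median of 149 other bins of the Dup-L segment, the -10 kb bin of deltaBor kept 19.4% of its WT contacts (interval 18.7 to 20.1) and the +10 kb bin kept 58.1% (56.7 to 59.4). The 4 outer bins kept 93.6%, 96.3%, 87.7% and 90.7%, from the -30 kb to the +30 kb bin. Both neighbours of the lost bin thus kept part of their contacts, which lowers their raw counts in deltaBor. The +10 kb bin still rose with centromeric partners, from 2703 to 3236 counts.

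Dup-LdeltaBor showed nearly the same loss against Dup-L. There the -10 kb bin kept 20.5% (20.1 to 21.0) of its Dup-L contacts, the +10 kb bin 59.4% (58.5 to 60.3), and the outer bins 92.2%, 93.7%, 89.5% and 92.9%. The lost bin itself kept 2.84% (2.70 to 2.98), with 1527 contacts outside the zone where deltaBor had 0. The source of these contacts was not tested.

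The zone lay inside the duplicated segments of Dup-L and Dup-LdeltaBor (110960001 to 112520000, 1560 kb), in that of Dup-C (110770001 to 112520000, 1750 kb) and outside that of Dup-S (111750001 to 112170000, 420 kb). In Dup-L and Dup-C the whole zone is thus in the duplicated stretch, and in Dup-LdeltaBor the zone without the DNA it lacks. Contacts of the copies cannot be told apart in the map. The segment's bins had a median contact sum over WT, relative to the median bin of the map, of 1.76 in Dup-L. It was 2.01 in Dup-C and 2.43 in Dup-LdeltaBor. The number of copies was not measured. All 94 telomeric partners of a zone bin lay in the Dup-L and Dup-C segments, but only 34 to 40 of the centromeric ones in the Dup-L segment and 53 to 59 in the Dup-C segment. Raw directionality in these genomes therefore includes the difference in copies between the sides, and the KR value (Knight-Ruiz balancing, which gives all bins equal sums) is given beside it. Sides and distances are those of mm9, and a contact between copies is counted with those within a copy. A cross-side contact in these genomes is therefore not shown to cross the boundary, on raw or KR values.

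Directionality is the log2 of a bin's contacts with telomeric partners over those with centromeric partners. In WT it rose from negative to positive across 20 kb. The -30 kb bin had 5924 centromeric and 2637 telomeric contacts, a directionality of -1.17 (interval -1.23 to -1.10). The +30 kb bin had 3943 centromeric and 11292 telomeric contacts, 1.52 (1.47 to 1.57). The -20 kb and -10 kb bins lay at -0.92 and -0.68, the lost bin at 0.80, and the +10 kb and +20 kb bins at 1.68 and 1.55. So the lost bin faced telomeric in WT, with 63.5% of its contacts on that side, and the change of sign fell between it and the -10 kb bin. KR values ran the same way, from -1.30 to 1.32 at the ends. Among the 387 bins of the WT map with full windows on both sides, 57 had a lower directionality than the -30 kb bin and 370 a lower one than the +10 kb bin. The bins just outside the zone, 111350001 to 111360000 and 111430001 to 111440000, had -1.28 and 1.59, so the zone ended within the stretch of each facing.

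In deltaBor the 6 remaining bins faced the same way. Their directionality was -0.40, -0.36 and -0.29 on the centromeric side and -0.44, -0.36 and -0.20 on the telomeric side, from the -30 kb to the +30 kb bin. Every one leaned centromeric, and the ranges of the sides overlapped. The +20 kb bin shows the turn in counts: it had 2445 centromeric and 7145 telomeric contacts in WT, and 4520 and 3521 in deltaBor. The share of telomeric contacts of that bin was 74.5% (73.6 to 75.4) in WT and 43.8% (42.7 to 44.9) in deltaBor. At the -20 kb bin the share moved the other way and less, from 34.5% (33.6 to 35.5) to 43.7% (42.7 to 44.8). KR values of deltaBor lay between -0.61 and -0.36.

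Dup-S, whose duplication lay outside the zone, kept the WT shape. Its bins ran -0.99, -0.83 and -0.45 on the centromeric side, 0.98 at the lost bin, and 1.86, 1.75 and 1.72 on the telomeric side. With KR values the same bins ran from -1.28 at the -30 kb bin to 1.40 at the +30 kb bin, against -1.30 and 1.32 in WT.

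Dup-L and Dup-C, which hold the zone in duplicate, kept a telomeric lean on the telomeric side and lost most of the centromeric lean on the other. Dup-L had -0.09, 0.04 and 0.33 at the centromeric-side bins, 1.21 at the lost bin and 1.69, 1.59 and 1.54 at the telomeric-side bins. In Dup-C the values were -0.29, -0.18 and 0.15, then 0.94, then 1.32, 1.25 and 1.17. With KR values the centromeric-side bins lay at -0.49, -0.33 and -0.06 in Dup-L and at -0.60, -0.43 and -0.14 in Dup-C. The sign at the -20 kb and -10 kb bins of Dup-L and the -10 kb bin of Dup-C therefore differed between raw and balanced values, while the order of the sides did not.

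Dup-LdeltaBor had no difference between the sides of the kind seen in Dup-L. Its bins lay at 0.59, 0.57 and 0.44 on the centromeric side and 0.61, 0.55 and 0.60 on the telomeric side, all leaning telomeric. With KR values these were 0.15, 0.15, -0.02, 0.20, 0.14 and 0.21, near an even split. The trace of the lost bin had 291 centromeric and 562 telomeric contacts, 0.95 (0.74 to 1.16).

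**Figure D1:**
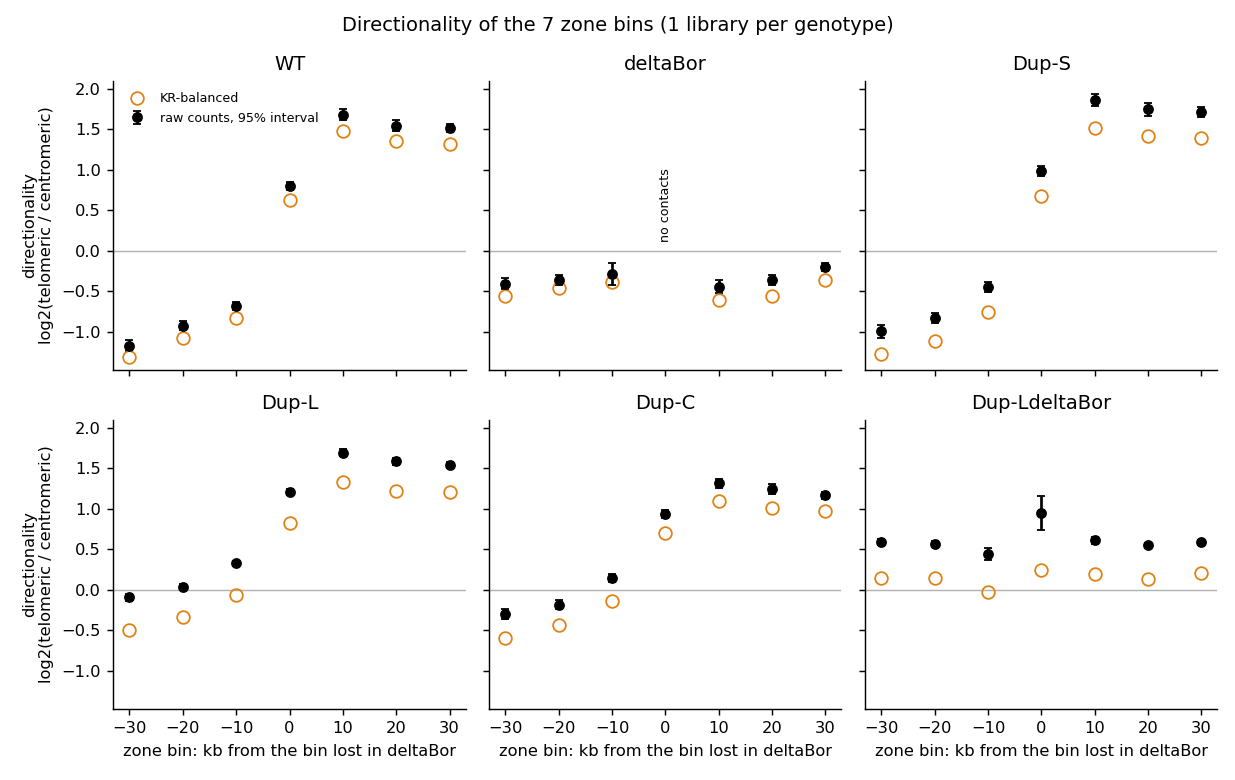
Directionality of each zone bin, log2 of telomeric over centromeric contacts 70 to 1000 kb away, by genotype (1 library each), against the distance of the bin from the bin lost in deltaBor in kb. Filled points are raw counts with 95% binomial intervals (counting error only), open circles are KR-balanced values. WT rises from -1.17 to 1.52, while the remaining bins of deltaBor lie between -0.44 and -0.20.

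The step sums this up as the pooled directionality of the 3 telomeric-side bins minus that of the 3 centromeric-side bins. It was 2.47 (2.42 to 2.51) in WT, 2.49 (2.44 to 2.55) in Dup-S, 1.48 (1.45 to 1.51) for Dup-L and, for Dup-C, 1.32 (1.27 to 1.36). In deltaBor it was 0.07 (0.02 to 0.13) and in Dup-LdeltaBor 0.02 (-0.01 to 0.05). Libraries with the boundary thus had steps of 1.32 to 2.49, and both boundary deletions had steps near 0. The values of Dup-L and Dup-C can include contacts between copies. How much of their lower step goes with these was not tested. The sign of the deltaBor step was not stable, since KR values gave -0.04. Set among 381 places of the same map, the place of the lost bin ranked 3 from the highest step in WT and in Dup-S, 18 in Dup-C, 10 in Dup-L, 99 in deltaBor and 102 in Dup-LdeltaBor. The place with the highest step was the same bin in all 6 libraries, 113030001 to 113040000, with 2.76 (deltaBor) to 3.02 (Dup-LdeltaBor).

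The share of cross-side contacts tells the same in percent. Over the 6 bins it was 29.7% (29.4 to 30.1) in WT, 38.3% (38.0 to 38.7) in Dup-C, 37.4% (37.1 to 37.6) in Dup-L, 29.5% (29.1 to 29.8) in Dup-S, 47.3% (47.1 to 47.6) in Dup-LdeltaBor and 50.6% (50.2 to 51.1) in deltaBor. KR values moved each share by under 2 percentage points. Where the zone is duplicated, the share can include contacts between copies.

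The stripes are the run of these contacts along the partners, given as a bin's KR values over the library's mean at the same distance, where 1 is the mean. In WT the 3 centromeric-side bins lay at 1.40, 1.34 and 1.25 on their own side and at 0.57, 0.64 and 0.70 across. The 3 telomeric-side bins lay at 1.33, 1.24 and 1.16 on their own side and at 0.48, 0.49 and 0.46 across. Own-side and cross-side levels did not overlap. The lost bin stood between, at 0.75 centromeric and 1.15 telomeric.

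Along the stripe the WT level rose with distance. For the outer bins of the centromeric side it was 0.74 with own-side partners 70 to 160 kb away and 5.61 with those 970 to 1060 kb away. For those of the telomeric side it rose from 0.88 to 2.33 over the same range. Cross-side levels also rose, from 0.43 to 1.10 and from 0.31 to 2.14. The last of these values lies above the mean, so the telomeric-side bins too met the farthest centromeric window more often than bins at that distance do on average.

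After the deletion the stripes of the sides ran together. In deltaBor the outer bins of the centromeric side had 0.79 in the nearest and 2.97 in the farthest centromeric window, and those of the telomeric side 0.88 and 3.09. In the nearest and farthest telomeric windows the levels were 0.88 and 1.20, and 0.60 and 1.37. Over all partners 70 to 1000 kb away, the 6 remaining bins lay at 1.00 to 1.15 centromeric and 0.74 to 0.80 telomeric. In Dup-LdeltaBor the 6 bins lay at 0.91 to 0.99 centromeric and 0.91 to 1.09 telomeric.

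Own-side levels were 1.11 to 1.39 in Dup-L and 1.20 to 1.44 in Dup-C, and each bin's own-side level stayed above its cross-side level. The centromeric-side bins had cross-side levels of 0.89, 0.97 and 1.06 in Dup-L and 0.90, 0.99 and 1.09 in Dup-C, nearer to the mean than in WT. At the -10 kb bin the sides were close, with own-side levels of 1.11 in Dup-L and 1.20 in Dup-C. The telomeric-side bins had 0.55, 0.57 and 0.54 in Dup-L and 0.67, 0.67 and 0.64 in Dup-C.

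**Figure D2:**
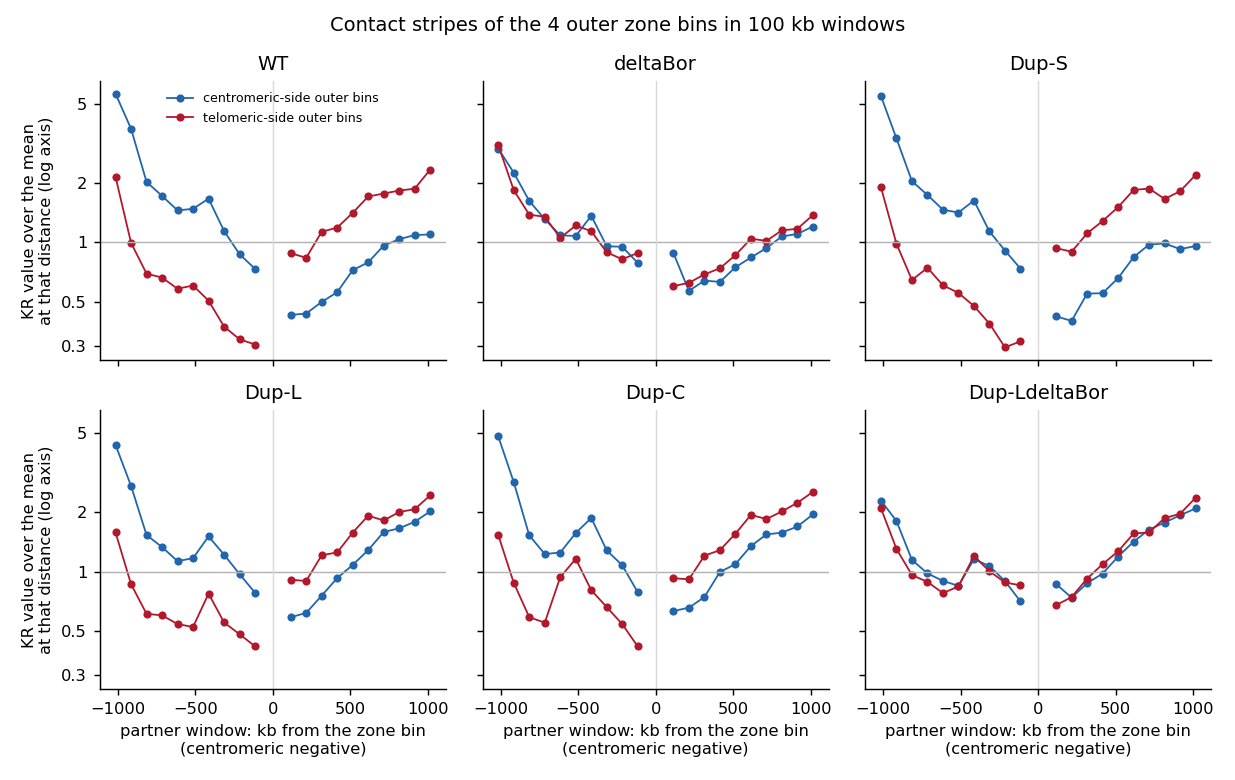
Contact stripes of the outer zone bins, KR value over the library's mean at the same distance (log axis), in windows of 10 partner bins, against the distance of the window from the zone bin in kb, with centromeric windows negative. Blue lines are the 2 outer bins on the centromeric side and red lines the 2 on the telomeric side. The lines are apart on both sides in WT and Dup-S, less so in Dup-L and Dup-C, and run together in deltaBor and Dup-LdeltaBor.

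The likeness of the profiles describes the same. Over 188 partner bins, the profile of the -20 kb bin correlated with that of the +20 kb bin at r = 0.41 in WT, 0.31 in Dup-C, 0.43 in Dup-L, 0.28 in Dup-S, 0.87 in deltaBor and 0.93 in Dup-LdeltaBor. Adjacent outer bins of 1 side correlated at 0.87 to 0.96 in the 6 libraries. These are correlations across partner bins of 1 library, which share depth and neighbours and are not independent.

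Folds against a control library were taken on raw counts, scaled on contacts that lie outside the zone and outside the altered segment. In deltaBor against WT, the cross-side contacts of the 6 bins went from 20137 to 22442 counts, a scaled fold of 1.37 (1.35 to 1.40). The own-side contacts went from 47581 to 21889, a fold of 0.567 (0.558 to 0.576). Both hold the lower coverage of the neighbours of the lost bin. For the 4 outer bins alone the folds were 1.79 (1.75 to 1.83) across and 0.730 (0.717 to 0.743) on the own side, and with KR values 1.61 and 0.688.

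The change was not even between the sides. Contacts of the telomeric-side outer bins with centromeric partners rose from 6388 to 11660 counts, 2.25-fold (2.18 to 2.32). Those of the centromeric-side outer bins with telomeric partners went from 6278 to 6732, 1.32-fold (1.28 to 1.37). On the own side the telomeric-side bins fell to 0.651 (0.636 to 0.668) and the centromeric-side bins to 0.843 (0.820 to 0.866). The intervals of the sides did not overlap in either case, which concerns counting error within these libraries and not differences between animals.

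By distance, the cross-side gain was largest close to the zone. Distances are in mm9 coordinates, so the DNA missing in deltaBor brings cross-side partners nearer than stated. How much of the folds goes with that was not tested. The telomeric-side outer bins had folds of 2.93 with centromeric partners 70 to 160 kb away and 1.53 with those 970 to 1060 kb away. The centromeric-side outer bins had 2.10 with the nearest telomeric window and 1.31, 1.31 and 1.15 in the next windows. From 470 kb outward their folds were 1.01 to 1.11, so this gain was that of the nearest windows. Own-side contacts of the centromeric-side bins went from 1.12 in the nearest window to 0.54 in the farthest, where the WT stripe was highest. Those of the telomeric-side bins lay between 0.59 and 0.75 in all 10 windows.

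Windows were called higher at a fold of at least 1.5 and lower at 0.667 or below, where both libraries held at least 50 counts. Of the 140 windows of the zone, 120 were tested in deltaBor against WT. Of these, 25 were higher and 49 lower. Over all bins of the map the shares were 7.64% higher and 1.54% lower. All 25 higher windows were cross-side, of 60 tested, and 0 of 60 own-side windows were higher. The telomeric-side outer bins supplied 19 of the 25 and the +10 kb bin 4. Of the lower windows, 20 belonged to the -10 kb bin and 10 to the +10 kb bin, whose coverage fell. Among the 80 windows of the outer bins, 21 were higher and 19 lower. The largest folds were those of the +20 kb bin with 111250001 to 111350000 (2.97; 403 counts in WT and 972 in deltaBor), the +30 kb bin with 111260001 to 111360000 (2.90; 688 and 1619) and the +20 kb bin with 111150001 to 111250000 (2.80; 253 and 574). The smallest were those of the -10 kb bin with 110320001 to 110420000 (0.0705), 110420001 to 110520000 (0.120) and 110520001 to 110620000 (0.129), where KR values gave 0.344, 0.555 and 0.577.

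The authors' deposited table of log2 ratios of WT over deltaBor correlates at r = 1 with the log2 ratio of the raw maps. It holds the same counts and adds no separate evidence. In it, the 188 pairs of the telomeric-side outer bins with centromeric partners had a median of -1.02 and 2 were above 0. For their pairs with telomeric partners the median was 0.74 and all 188 were above 0. Medians in the authors' deposited table were 0.32 and -0.13 for the centromeric-side outer bins with centromeric and telomeric partners. Over all 50149 pairs at these distances the authors' deposited table had a median of 0.10, with 61.2% above 0.

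Loss of the boundary on the duplicated chromosome was read from Dup-LdeltaBor against Dup-L. Cross-side contacts of the 6 bins went from 51593 to 69182 counts, a fold of 1.42 (1.41 to 1.44), and own-side contacts from 86524 to 76966, 0.945 (0.936 to 0.954). For the 4 outer bins the folds were 1.93 (1.90 to 1.96) across and 1.16 (1.14 to 1.17) on the own side. KR values gave 1.39 and 0.827, so the own-side fold lies on the other side of 1 with balanced values. The scaling leaves out the duplicated segment, and the other bins of that segment had a median window fold of 1.44 in this comparison. Against that median, the own-side outer folds are low and the cross-side ones high.

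Here too the telomeric-side bins moved most. Their contacts with centromeric partners rose from 13063 to 29092 counts, 2.37-fold (2.32 to 2.42), and with KR values 1.74-fold. The centromeric-side outer bins with telomeric partners went from 18873 to 28886, 1.63-fold (1.60 to 1.66), and with KR values 1.19-fold. By distance, again in mm9 coordinates that include the missing DNA, the telomeric-side bins had 2.93 in the nearest centromeric window and 1.55 in the farthest. The centromeric-side bins had 2.05 in the nearest telomeric window and 1.45 to 1.66 in the others. The raw folds of the nearest windows were close to those of deltaBor against WT (2.93 and 2.10). With KR values they were lower, 2.06 against 2.71 for the telomeric-side bins and 1.495 against 1.92 for the centromeric-side bins.

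Of 127 windows tested, 34 were higher and 33 lower, where all bins of the map gave 12.8% and 0.47%, and the other bins of the duplicated segment gave 38.8% higher. The 34 higher windows were all cross-side, of 60 tested, and 0 of 60 own-side windows were higher. Lower windows belonged mainly to the -10 kb bin (20) and to the trace of the lost bin (7). Outer bins gave 31 higher and 2 lower of 80. The largest folds were at the +30 kb bin with 111260001 to 111360000 (3.05; 1779 counts in Dup-L and 5107 in Dup-LdeltaBor), and at the +20 kb bin with 111050001 to 111150000 (2.79) and with 111250001 to 111350000 (2.75). The smallest were of the lost bin with 111760001 to 111860000 (0.0303), 111560001 to 111660000 (0.0322) and 111860001 to 111960000 (0.0330). The authors' deposited table of Dup-LdeltaBor over Dup-L also correlates at r = 1 with the log2 ratio of the raw maps and adds no separate evidence. In it, the telomeric-side outer bins had a median log2 of 0.93 with centromeric partners and 0.11 with telomeric ones. The centromeric-side outer bins had -0.19 with centromeric and 0.47 with telomeric partners in the authors' deposited table, against -0.03 over all pairs.

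**Figure D3:**
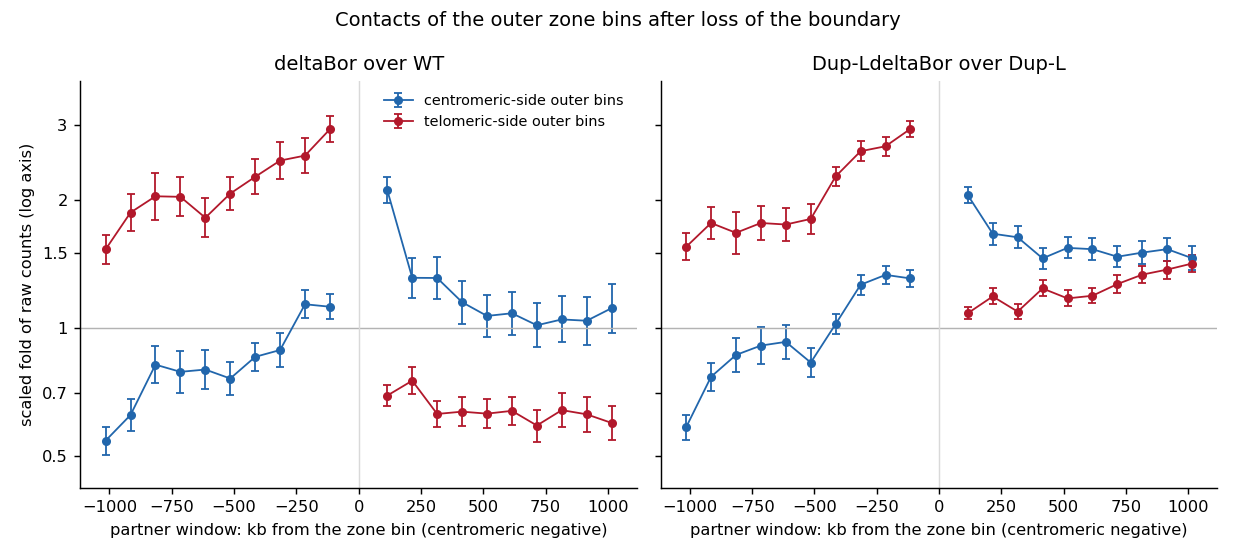
Scaled fold of raw counts (log axis) of the outer zone bins after loss of the boundary, on the WT chromosome (left) and on the Dup-L chromosome (right), by the distance of the partner window in kb, with centromeric windows negative. Blue points are the centromeric-side bins, red points the telomeric-side bins, and bars 95% binomial intervals (counting error only). The red lines reach 2.93 in the nearest centromeric window in both panels, and the own-side red line lies below 1 on the left and above 1 on the right.

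In the intact duplications the zone gained contacts where its partners were duplicated too. Dup-L against WT had a cross-side fold of 2.72 (2.68 to 2.77; 20137 to 51593 counts) and an own-side fold of 1.93 (1.91 to 1.95). In Dup-C these were 3.34 (3.27 to 3.40; 20137 to 26975) and 2.27 (2.24 to 2.30). With KR values, which give bins equal sums but do not separate contacts of the copies, they were 1.42 and 1.01 in Dup-L and 1.44 and 0.994 in Dup-C. The cross-side gain was there on either scale, and the own-side gain on the raw scale alone. The balanced cross-side gain still went with duplicated partners. The telomeric-side outer bins of Dup-L had KR folds of 1.60 with centromeric partners 370 to 460 kb away and 0.92 in the next window, beyond the segment.

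In Dup-L, 98 of 140 windows were higher and 0 lower. The map as a whole gave 20.7% higher and 0.115% lower, and the other bins of the duplicated segment 66.6% higher. The call went with the place of the window. With telomeric partners all 70 windows lay in the segment and 70 were higher. With centromeric partners 22 of 22 windows inside the segment, 6 of 6 across its edge and 0 of 42 outside it were higher. Folds were 2.07 to 3.52 inside and 0.981 to 1.47 outside. The telomeric-side outer bins had 3.43 with centromeric partners 370 to 460 kb away and 1.29 in the next window, the drop at the edge of the segment. The 3 largest folds were all of the -30 kb bin, with 112030001 to 112130000 (3.98), 112330001 to 112430000 (3.93) and 111730001 to 111830000 (3.88). The smallest, 0.981, 0.990 and 0.991, lay with windows between 110350001 and 110530000.

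Dup-C had 111 higher and 0 lower windows of 140, against 26.1% and 0.344% over all bins of its map and 70.2% higher in the other bins of its segment. All 70 telomeric windows and 35 of 35 centromeric windows inside the segment were higher, as were 6 of 7 across its edge and 0 of 28 outside it. The telomeric-side outer bins kept high folds to a greater distance than in Dup-L, with 4.71 and 3.73 at 470 to 560 kb and 570 to 660 kb, where Dup-L had 1.29 and 1.34. The 3 largest folds were those of the +10 kb bin with 110840001 to 110940000 (5.03) and 110940001 to 111040000 (4.98), and the +30 kb bin with 110860001 to 110960000 (4.71). The smallest were 0.895, 0.983 and 0.986, all with centromeric windows outside the segment.

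The duplicated zone without the boundary had larger cross-side folds against WT than the intact Dup-L had. The other bins of the duplicated segment were higher too, with median window folds against WT of 2.74 in Dup-LdeltaBor and 1.92 in Dup-L. How much of the difference on raw counts goes with the segment as a whole was not tested. Dup-LdeltaBor had a cross-side fold of 3.88 (3.82 to 3.94) over the 6 bins and 5.17 (5.07 to 5.27) over the outer bins, and 1.86 and 1.99 with KR values. Of 127 windows, 79 were higher and 16 lower, against 25.4% and 0.355% over the map and 75.8% higher in the rest of the segment. The largest folds were the +20 kb bin with 111050001 to 111150000 (9.15; 201 and 1629 counts) and 111150001 to 111250000 (8.71), and the +30 kb bin with 111260001 to 111360000 (8.38). With KR values these were 2.87, 2.97 and 2.85. The telomeric-side outer bins had 7.77 with centromeric partners 370 to 460 kb away and 2.32 in the next window, a drop at the same edge as in Dup-L. The smallest were of the lost bin, 0.0679 to 0.0748. Dup-L and Dup-LdeltaBor were both set against the same WT library, so their folds share its counts.

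Dup-S changed the zone least. Its cross-side fold was 1.13 (1.11 to 1.15; 20137 to 15476 counts before scaling) and its own-side fold 1.15 (1.13 to 1.16), while KR values gave 0.984 and 0.996. Of 140 windows 11 were higher and 0 lower, against 4.75% and 0.145% over its map. All 11 had telomeric partners, 10 of the 24 windows inside the duplicated segment and 1 of the 12 across its edge. Outside the segment, 0 of 70 centromeric windows (median fold 1.06) and 0 of 34 telomeric ones (0.980) were higher. The largest were the -30 kb bin with 112030001 to 112130000 (1.70), the +10 kb bin with 111770001 to 111870000 (1.66) and the +30 kb bin with 111990001 to 112090000 (1.58), each at 1.14 to 1.17 with KR values. Its smallest folds were 0.886, 0.887 and 0.887.

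Peaks are single pairs of bins that stand out along the stripes. A pair was called a peak where its KR value and its raw count were both at least 2 times the mean at that distance, with at least 20 counts, 70 to 2000 kb apart, and with the highest KR value of the 5 by 5 bins around it. Of 2716 zone pairs at these distances, 27 were peaks in WT (0.994%), 29 in Dup-C (1.07%), 30 in Dup-L (1.10%), 29 in Dup-S (1.07%), 10 in deltaBor (0.368%) and 10 in Dup-LdeltaBor (0.368%). Over all pairs of the maps the shares were 0.349% in WT, 0.31% in Dup-C, 0.309% in Dup-L, 0.291% in Dup-S, 0.387% in deltaBor and 0.303% in Dup-LdeltaBor. By these calls the zone held close to its background share of peaks in deltaBor and Dup-LdeltaBor, and more than that in the libraries with a boundary. For WT, on whose map the zone was chosen, this is a description. The 2716 pairs include those of the lost bin, none of which could be called in deltaBor. Dup-LdeltaBor had 10 peaks here but 17 with the lost bin left out of the map, since the trace of that bin had high KR values on few counts. Dup-LdeltaBor had 23 peaks with the mean taken outside the duplicated segment. Its 10 peaks therefore do not show that its zone was at the background share.

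In WT most peaks lay on the side a bin faced. Of the 27 there, 23 were own-side, 3 belonged to the lost bin and 1 was cross-side. The cross-side peaks numbered 0 in Dup-C, 2 in Dup-L, 0 in Dup-S, 2 of 10 in deltaBor and 5 of 10 in Dup-LdeltaBor. In deltaBor, whose bins all leaned centromeric, 7 of the 10 peaks had telomeric partners, all of them at the +20 kb and +30 kb bins. By bin, the lost bin and its neighbours held 21 of the 27 peaks of WT, 12 of them at the +10 kb bin. These 3 bins held 1 in deltaBor and 2 in Dup-LdeltaBor. The 4 outer bins held 6 in WT, 14 in Dup-C, 13 in Dup-L, 10 in Dup-S, 9 in deltaBor and 8 in Dup-LdeltaBor. Against WT, the lower number in deltaBor was that of the lost bin and its neighbours. The lost bin had 0 contacts there, and the -10 kb bin kept 19.4% and the +10 kb bin 58.1% of their WT contacts. Since a call needs a minimum raw count and raw level, this fall cannot be told apart from the missing coverage. Against Dup-L, Dup-LdeltaBor had fewer peaks at the outer bins as well, by calls that the trace of the lost bin affects. With the lost bin left out of the map, the outer bins of Dup-LdeltaBor held 2, 5, 2 and 3 peaks, from the -30 kb to the +30 kb bin. Those of Dup-L held 5, 2, 9 and 1. The +10 kb bin then held 5 in Dup-LdeltaBor and 10 in Dup-L.

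Of 109 pairs called in any library, 92 were called in 1 library alone and 3 in 4 libraries. Those 3 were the lost bin with 113020001 to 113030000, the lost bin with 112640001 to 112650000, and the -10 kb bin with 110360001 to 110370000, each in WT, Dup-S, Dup-L and Dup-C. A pair called in 1 library alone is not thereby shown to differ from the others, as many lie near the threshold.

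The leading peak joined the lost bin to 113020001 to 113030000, 1630 kb away, next to the place with the highest step of the map. It had 330 counts in WT, 144 in Dup-C, 354 in Dup-L and 197 in Dup-S. The KR value over the mean was 23.5, 16.8, 20.7 and 20.6 in these libraries. Along the zone in WT, the value with this partner was 3.74, 4.58 and 6.68 at the centromeric-side bins and 17.6, 11.1 and 9.49 at the telomeric-side bins. It thus stood on the lost bin and fell off on the telomeric side more slowly than on the centromeric side.

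In deltaBor the same partner met the 6 remaining bins at 3.27, 4.61, 4.04, 4.88, 4.36 and 5.49, with no bin standing out. The last of these, at the +30 kb bin with 83 counts, was the leading peak of deltaBor. For the 4 outer bins together, counts with this partner went from 377 in WT to 185 in deltaBor, or 8.94 (8.06 to 9.89) and 5.06 (4.35 to 5.84) times the raw mean at that distance. Contact with that partner therefore remained above the mean after the boundary was gone, at a lower level. Dup-LdeltaBor had 237 counts at the outer bins, 4.25 (3.73 to 4.83) times the mean, against 437 counts and 8.46 (7.69 to 9.30) times in Dup-L. The trace of the lost bin had a KR value of 23.8 on 24 counts, where the raw count was 1.76 (1.13 to 2.62) times the mean.

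A second partner on the telomeric side, 112640001 to 112650000 at 1250 kb, met the lost bin with 178 counts in WT, 76 in Dup-C, 176 in Dup-L and 110 in Dup-S. The KR values were 13.2, 9.12, 9.69 and 12.4 times the mean. The +10 kb bin came next in WT, at 12.3. At the outer bins the value was 3.82 in WT and 2.26 in deltaBor, and 3.19 in Dup-L and 2.16 in Dup-LdeltaBor. The range between bins in deltaBor was 1.67 to 3.84, the highest at the -10 kb bin on 8 counts.

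On the centromeric side the leading peaks stood at the bin next to the lost bin. The -10 kb bin met 110390001 to 110400000 with 370 counts in WT, 149 in Dup-C, 309 in Dup-L and 183 in Dup-S, at 11.4, 8.82, 7.03 and 7.92 times the mean. With 110360001 to 110370000 it had 217, 105, 236 and 152 counts, at 11.0, 9.16, 8.39 and 10.3 times. A further peak in WT, 110220001 to 110230000, had 146 counts and 6.11 times. Toward these partners the telomeric-side bins of WT lay at 3.07, 2.71 and 1.90, and at 3.66, 3.32 and 3.09. The lost bin of WT stood between, at 7.66 and 9.24. With the partner at 110360001 to 110370000 the intervals of the raw counts of these neighbours overlapped, at 9.84 (8.58 to 11.2) times the mean for the -10 kb bin and 8.81 (7.60 to 10.2) for the lost bin. The 2 leading telomeric peaks of WT thus had their highest value at the lost bin, and the 2 leading centromeric ones at the -10 kb bin.

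In deltaBor, with 110390001 to 110400000, the centromeric-side bins lay at 4.10, 3.25 and 3.90 and the telomeric-side bins at 4.33, 3.53 and 3.90. The former were below their WT values and the latter above theirs. With 110360001 to 110370000 the centromeric-side bins were also below WT, at 3.47, 2.39 and 3.42, but the telomeric-side bins lay at 2.97, 3.22 and 3.20, where WT had 3.66, 3.32 and 3.09. With 110390001 to 110400000 the outer bins had 510 counts in WT and 373 in deltaBor. With 110360001 to 110370000 they had 348 and 189. The next peaks of deltaBor were the +20 kb bin with 110400001 to 110410000 (73 counts, 4.63 times) and the +10 kb bin with 110350001 to 110360000 (54 counts, 4.15 times), both cross-side. Its other named peaks were the +30 kb bin with 112850001 to 112860000 (3.09 times) and the +20 kb bin with 112740001 to 112750000 (3.03 times). In Dup-LdeltaBor the leading peaks were between 2.38 and 2.88 times the mean. They joined the -30 kb bin to 112430001 to 112440000, the +30 kb bin to 112450001 to 112460000, 110390001 to 110400000 and 112270001 to 112280000, and the +10 kb bin to 112380001 to 112390000. Of its 10 peaks, 9 had telomeric partners. With the lost bin left out of the map, an alternative added after seeing the data, higher pairs were called that the trace of that bin had masked. These were the +10 kb bin with 113020001 to 113030000 (50 counts, 4.72 times), the -20 kb bin with 113010001 to 113020000 (45 counts, 3.76 times) and the +10 kb bin with 112980001 to 112990000 (51 counts, 3.37 times).

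**Figure D4:**
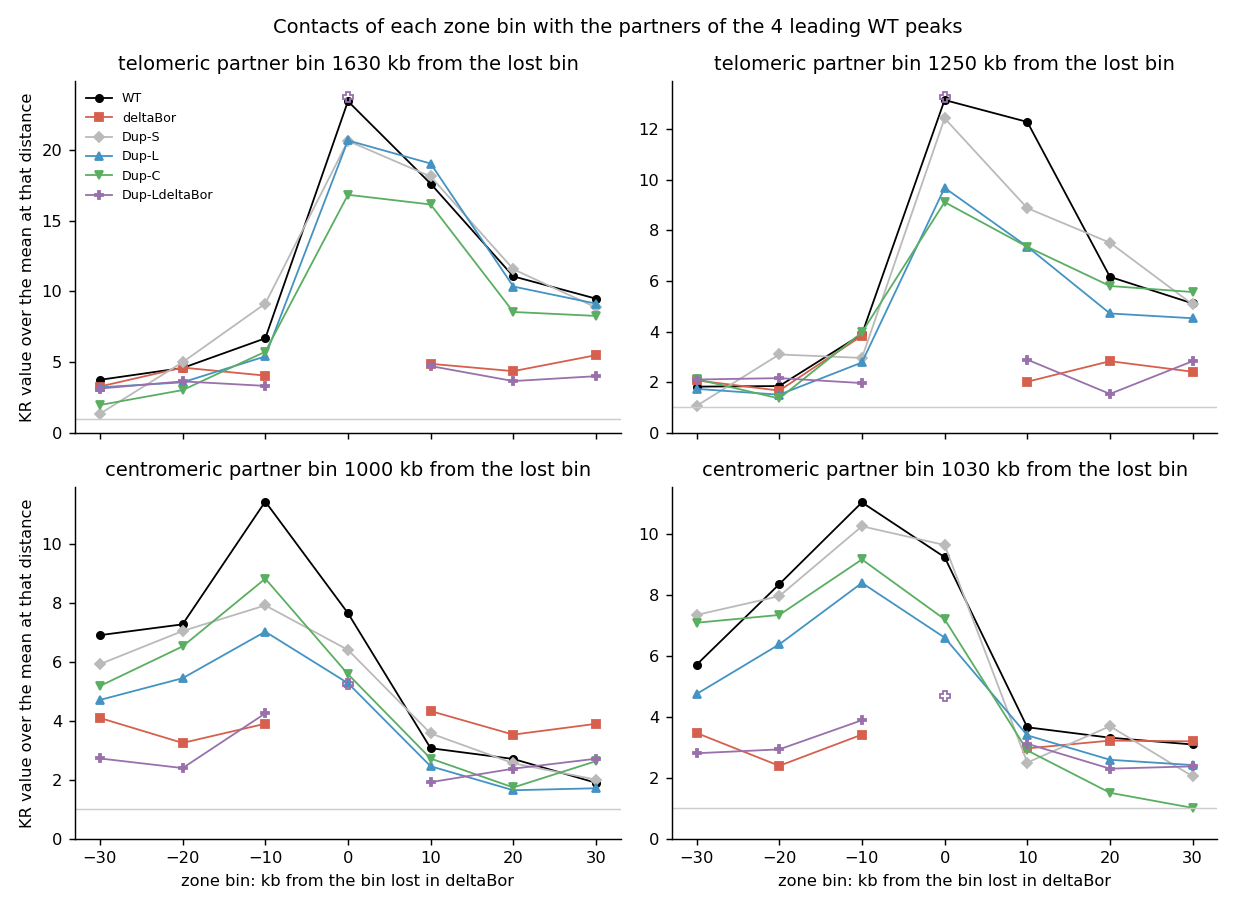
KR value over the library's mean at that distance for each zone bin with the partners of the 4 leading WT peaks, against the distance of the zone bin from the lost bin in kb, for the 6 genotypes (1 library each). Open symbols at 0 are the trace of the lost bin in Dup-LdeltaBor, on 8 to 24 counts, and deltaBor has no bin there. The WT line peaks at the lost bin (23.5 and 13.2) with telomeric partners and at the -10 kb bin (11.4 and 11.0) with centromeric partners, and the lines of deltaBor and of the present bins of Dup-LdeltaBor lie between 1.54 and 5.49.

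The remaining named peaks were those of the duplications. In Dup-S they were the -20 kb bin with 110260001 to 110270000 (50 counts, 5.09 times) and the +20 kb bin with 112800001 to 112810000 (42 counts, 5.08 times). Dup-L had the +10 kb bin with 113150001 to 113160000 (59 counts, 4.76 times) and Dup-C the +10 kb bin with 112960001 to 112970000 (46 counts, 5.18 times). Each had its partner on the own side of the zone bin, and each was far below the leading peak of its library.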

How the data were processed

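Capture Hi-C contacts were measured in 1 library for each of 6 genotypes. The submitters' processing notes name Bowtie2 2.2.6 and the build mm9. The authors deposited raw contact counts per pair of 10 kb bins, a KR-balanced signal map per library, and maps of log2 ratios of scaled counts for 2 comparisons. On the values, these had the sign of the genotype named first over the second. The file names mark a mapping quality of 30. The filters on read pairs, the removal of duplicates and the balancing tool were not given in the sources used here. Difference maps deposited by the authors were not used.

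The members, regions and alternatives were chosen with earlier results of these data known. Groups were taken from the labels' genotypes. Python 3.11.15 with numpy 2.4.6 and scipy 1.17.1 was used. Folds are raw counts over the control's after scaling on contacts at least 2 bins apart, outside the zone and the altered segment. KR folds set each library's bin sum to 1. The altered segment came from a segmentation of log2 contact sums per bin over those of WT (pseudocount 0.5), as the stretch that stood out most. Intervals of folds and directionality are exact binomial (Clopper-Pearson), those of counts over a mean exact Poisson, and those of the step Woolf's. They leave out the error of the scaling. All 7 bins are named, with up to 5 peaks per library and the 3 largest and 3 smallest window folds per comparison. The procedures were tested on simulated data. Depth was 4144258 to 8965219 contacts per library. A search of the zone for CTCF motifs and the placing of gene starts, planned only with a genome of the maps' build, were not run. Other samples of the series were not analysed here.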

Additional observations from a re-analysis of the deposited data

Results flagged for a closer look

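Own-side contacts of the outer zone bins moved in opposite directions when the boundary was lost from the WT and from the Dup-L chromosome. The fold was 0.730 in deltaBor over WT and 1.16 in Dup-LdeltaBor over Dup-L for the 4 outer bins. For the centromeric-side outer bins with centromeric partners it was 0.843 and 1.07, and for the telomeric-side outer bins with telomeric partners 0.651 and 1.20. Each genotype is 1 library, so the difference was not tested. With KR values all 3 pairs lay below 1 (0.688 and 0.827, 0.765 and 0.807, 0.601 and 0.846), and the other bins of the duplicated segment had a median window fold of 1.44 in Dup-LdeltaBor over Dup-L.

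The bin lost in deltaBor had 1527 contacts with bins outside the zone in Dup-LdeltaBor, where deltaBor had 0. These contacts entered neither the step nor the pooled cross-side and own-side values. They are included in the member contacts, the window calls and the peak shares.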

How the results depend on the processing

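No paired analysis was possible because each genotype has 1 library. Steps kept their order of libraries with and without the boundary under each alternative run. With KR values the step was 1.42 in Dup-C, 1.55 in Dup-L and 0.086 in Dup-LdeltaBor, and in deltaBor it turned to -0.041. With partners up to 500 kb it was -0.065 in deltaBor (turned), -0.11 in Dup-LdeltaBor, 2.59 in Dup-S and 1.38 in Dup-C. The outer bins alone gave 2.56 in WT, 2.63 in Dup-S, 1.58 in Dup-L and 1.43 in Dup-C. Equal weight for each distance gave 2.52 in WT, 0.24 in deltaBor, 1.53 in Dup-L and 0.14 in Dup-LdeltaBor.

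The cross-side fold of Dup-S turned to 0.984 with KR values and was 1.03 at the library total. With KR values it was 1.57 (deltaBor), 1.42 (Dup-L), 1.44 (Dup-C), 1.86 (Dup-LdeltaBor over WT) and 1.31 (over Dup-L). Scaled to the library total it was 1.24, 2.19, 2.28, 2.70 and 1.23 in the same order, and with equal weight for each distance 1.24, 2.58, 3.10, 3.31 and 1.29. The outer bins alone gave 1.79 in deltaBor, 5.17 in Dup-LdeltaBor over WT and 1.93 over Dup-L.

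Peaks at 3 times the mean numbered 14 (WT), 15 (Dup-C), 13 (Dup-L), 15 (Dup-S), 5 (deltaBor) and 0 (Dup-LdeltaBor). That 0 goes with the trace of the lost bin: with that bin left out, called pairs of Dup-LdeltaBor reached 4.72, 3.76 and 3.37 times. Dup-LdeltaBor had 24 at 1.5 times, 23 with the mean outside the segment and, in an alternative added after seeing the data, 17 with the lost bin left out. With KR values the higher windows numbered 29 (Dup-C), 29 (Dup-L), 0 (Dup-S) and 37 (Dup-LdeltaBor over WT), and the lower ones 2 (Dup-C) and 11 (Dup-LdeltaBor over Dup-L). At the library total, higher windows were 2 (Dup-S) and 17 (Dup-LdeltaBor over Dup-L), and lower ones 1 (Dup-C) and 33 (Dup-LdeltaBor over WT). A minimum of 20 counts gave 27 lower windows in Dup-LdeltaBor over WT. The cause was not tested. The mean outside the segment has no value for WT and deltaBor. Depth limits the peaks, since a call needs 20 counts and the median filled pair of the zone held 10.5 (deltaBor) to 25 (Dup-L).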
